A study of Mus musculus with 22 samples.

Results

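The genes described here encode the proteins of the cytosolic ribosome, and they were followed in 22 RNA libraries of mouse muscle stem cells. They were taken by symbol: protein-coding genes named Rpl or Rps with a number and at most 1 further letter (a, x, y or l), the stalk genes beginning with Rplp, and Rpsa. This gave 80 of the 43430 genes in the files, 49 of the large (60S) subunit and 31 of the small (40S) subunit. Of these, 78 passed the filter on low counts and were tested, and Rpl10l and Rpl39l did not. Some ribosomal proteins carry symbols outside the rule (such as Rps3a1, Fau, Rack1, Rpl22l1, Rpl7l1, Rpl36al and Rps27rt) and are given only as relatives.

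The cells were ZsGreen-positive cells sorted from hindlimb muscle of Pax7-zsgreen mice, whose reporter marks cells that express Pax7, the transcription factor of muscle stem cells. The 6 groups were uninjured muscle at ZT16 (n = 3) and at ZT4 (n = 3), and muscle at day 1 (n = 4 per time) and day 3 (n = 4 per time) after cardiotoxin was injected. This venom toxin kills myofibers and spares many stem cells. ZT is zeitgeber time, in hours after lights on. The labels attach ZT16 and ZT4 to the injury and give neither the hour of collection nor age, sex or strain. Uninjured libraries carry the same ZT labels without an injury, so ZT may not mark the same event in all 6 groups. All mice were perfused with saline, mild paraformaldehyde and glycine before the sort, so all RNA came from lightly fixed cells. The labels do not say whether replicates were separate mice, so p-values measure the spread between these libraries, which may be technical.

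Each ribosome needs close to equal numbers of its proteins, and cells therefore tend to keep the genes for them in step. Most of their mRNAs are short, abundant and begin with a run of pyrimidines, the terminal oligopyrimidine tract, through which the kinase mTORC1 and the RNA-binding protein LARP1 control their translation and stability. Quiescent muscle stem cells make little protein, and they raise ribosome production when injury brings them into the cell cycle.

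Library totals ranged from 5965957 to 9751536 expected counts, the estimated reads that RSEM assigned. Pax7 had 290 to 349 CPM in uninjured libraries, 42.2 to 78.4 at day 1 and 18.1 to 29.1 at day 3. All 6 muscle stem cell markers, Pax7 included, summed to 2597 to 3348 CPM in uninjured libraries, 2190 to 2607 at day 1 and 1651 to 2083 at day 3. By edgeR (adjusted p under 0.05), 5 of the 6 were lower and 1 higher at day 1 against uninjured cells. At day 3, 4 were lower and 1 higher. CPM is a gene's count scaled to its library's total times that library's TMM factor. TMM is edgeR's scaling between libraries, with factors of 0.9419 to 1.094 here. Macrophage and monocyte markers (10 genes) summed to 16.9 to 92.3 CPM in uninjured libraries, 1322 to 4288 at day 1 and 263 to 946 at day 3. Replicates 1 and 3 of uninjured ZT16 stood apart from the other uninjured libraries in Myc, a transcription factor that drives ribosome production, with 668 and 634 CPM. Replicate 2 of that group had 244 CPM of Myc, and the uninjured ZT4 libraries had 154 to 254 CPM.

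The members' share of all expected counts was lowest in uninjured cells at ZT16. There it was 2.36%, 3.12% and 2.36%, against 3.69%, 5.22% and 5.25% in uninjured cells at ZT4. The ranges of these groups did not overlap, and ZT16 replicates 1 and 3 were the lowest of all 22 libraries. At day 1 the share was 4.14%, 4.05%, 4.43% and 5.05% at ZT16, and 4.54%, 4.48%, 4.16% and 4.44% at ZT4, so these groups overlapped. At day 3 it was 3.84%, 5.11%, 4.26% and 3.87% at ZT16, against 3.55%, 3.64%, 3.64% and 3.49% at ZT4, with every ZT16 library above every ZT4 library. No test was run on this sum.

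In uninjured cells both subunits were lower at ZT16. Members of the 60S subunit made up 1.61 ± 0.26% of counts in uninjured cells at ZT16 and 2.83 ± 0.51% at ZT4 (SD, n = 3 each). Members of the 40S subunit made up 1.01 ± 0.18% at ZT16 and 1.89 ± 0.38% at ZT4. Counts per length gave a larger share, because the members' mRNAs are short: 7.21 ± 0.77% of deposited TPM, which scales counts by transcript length, in uninjured cells at ZT16, against 11.0 ± 1.59% at ZT4. The 257 annotated pseudogenes of ribosomal proteins, from which reads cannot always be told apart, held 0.0981% to 0.25% of counts in the 22 libraries. In bulk RNA, fewer cells of a type and less RNA per cell cannot be told apart.

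**Figure D1:**
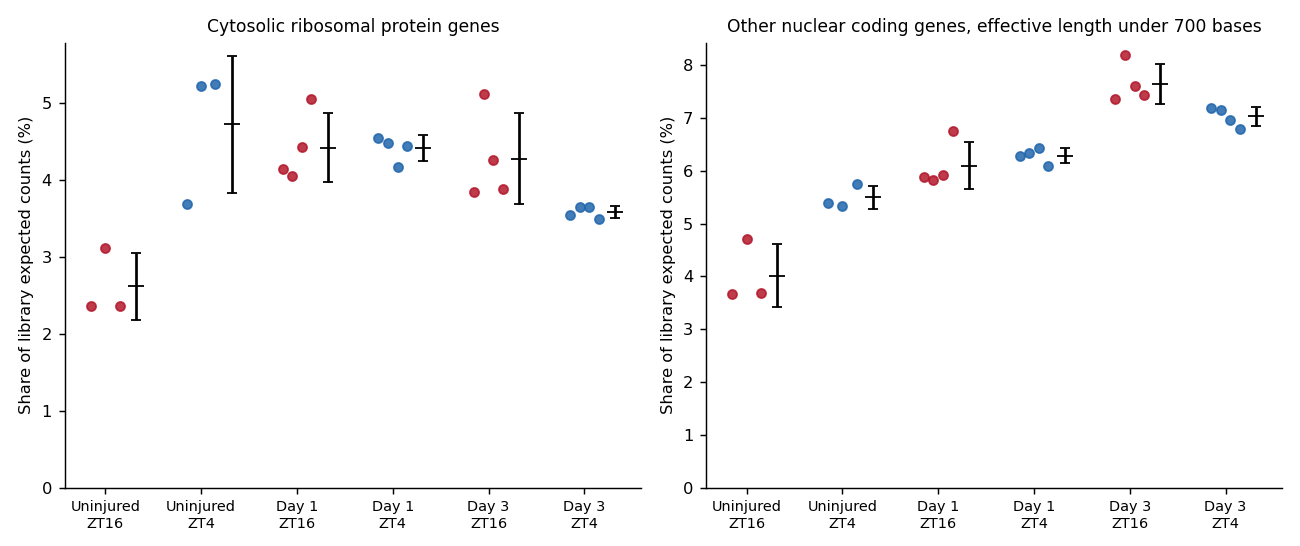
Share of each library's expected counts (percent) held by the 80 ribosomal protein genes (left) and by the 2387 other nuclear coding genes with an effective length under 700 bases (right), in the 6 groups. Points are libraries, and bars show the mean ± SD (n = 3 or 4). Uninjured ZT16 libraries, at 2.36% to 3.12% on the left, lie below all uninjured ZT4 libraries in both panels.

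In uninjured muscle, ZT16 was set against ZT4 to ask how the resting cells differ between these times. Of the 78 members tested, 76 were lower at ZT16 and none was higher by the edgeR quasi-likelihood test (adjusted p under 0.05). Over all 15084 genes tested, 9.12% were called lower, 8.53% higher and 17.7% in either direction. The median log2 fold change was −0.91 over members and 0.00 over all genes tested. All 31 members of the 40S subunit were called lower, with a median of −0.94, and 45 of 47 of the 60S subunit, with a median of −0.90. In 76 members every ZT16 library lay below every ZT4 library, against 12.9% of all genes.

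Rpl39, a small protein that lines the exit tunnel of the large subunit, changed most. It had 90.4, 93.0 and 61.6 CPM at ZT16, against 107, 261 and 249 CPM at ZT4 (log2 −1.33 ± 0.31 SE, edgeR adjusted p = 0.00573). The groups did not overlap, although ZT4 replicate 1 lay close to the ZT16 libraries. Small-subunit proteins followed: Rps21 (−1.28 ± 0.25), Rps12 (−1.27 ± 0.24), Rps28 (−1.26 ± 0.25), Rps10 (−1.24 ± 0.20) and Rps15a (−1.19 ± 0.19). Rps10, a protein of the small subunit's head, had 104, 135 and 102 CPM at ZT16, against 160, 336 and 312 CPM at ZT4 (adjusted p = 0.00023).

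Among the members called, the changes of Rpl13, Rpl3 and Rpl4 were among the smallest. Rpl13 had 1420, 1740 and 1540 CPM at ZT16, against 1850, 1980 and 2110 CPM at ZT4 (−0.34 ± 0.09, edgeR adjusted p = 0.0106). Rpl3, which sits at the peptidyl transferase centre, changed by −0.40 ± 0.10, and Rpl4, which helps to form the exit tunnel, by −0.41 ± 0.10. The 2 members not called, named here because they were the exceptions, were Rpl35 and Rpl3l. Rpl35 had 395, 432 and 321 CPM at ZT16, against 554, 457 and 396 CPM at ZT4, which overlap (−0.29 ± 0.14, adjusted p = 0.156). Rpl3l, the striated-muscle paralogue of Rpl3, had 3.30, 2.43 and 3.41 CPM at ZT16, against 0.226, 1.48 and 3.20 CPM at ZT4 (0.92 ± 0.85, adjusted p = 0.503).

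Other measures moved with this difference. One was mRNA length, and other coding genes were also lower at ZT16 the shorter they were, with medians of −0.56 under an effective length of 400 bases (176 genes), −0.33 at 400 to 700 bases (557 genes), −0.04 at 1000 to 2000 bases (3831 genes) and 0.15 at 4000 bases and above (2282 genes). Members lay below other genes of their length, at −1.01 (28 members), −0.89 (33 members) and −0.63 (8 members) in the first 3 of those classes. Across the 78 members, log2 fold change and log2 effective length had Pearson's r = 0.41, a description over genes of the same libraries. With each library's length trend, drawn from the other genes, taken out, 60 members were called lower and the median was −0.46, with 14.7% of all genes called in either direction. Rpl3 (−0.24) was then no longer called. The part of mRNA length in the difference was not tested further.

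Another was the pair of libraries high in Myc. Without uninjured ZT16 replicates 1 and 3 the median was −0.78, but only 11 members were called lower, with 2.82% of all genes called in either direction; replicate 2 was then the only ZT16 library and was assumed to vary like the other groups. Leaving out any 1 library gave 75 or 76 calls, with 11.4% to 18.7% of all genes called in either direction. RNA of other cells and the use of retained-intron transcripts differed as well. Markers of smooth muscle and mural cells (5 genes) summed to 372 to 636 CPM at ZT16, against 763 to 1191 CPM at ZT4. Of the 5, 2 were called lower and 3 were not called. Their median log2 fold change was 0.525, opposite in sign to the fall in the sum. Endothelial markers (5 genes) summed to 125 to 171 CPM at ZT16, against 94.2 to 108 CPM at ZT4, and 1 was called higher. Transcripts annotated with a retained intron held 3.15% to 3.74% of the members' counts at ZT16, against 2.63% to 3.12% at ZT4. In none of these sums and shares did the groups overlap, and their part in the difference was not tested.

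**Figure D2:**
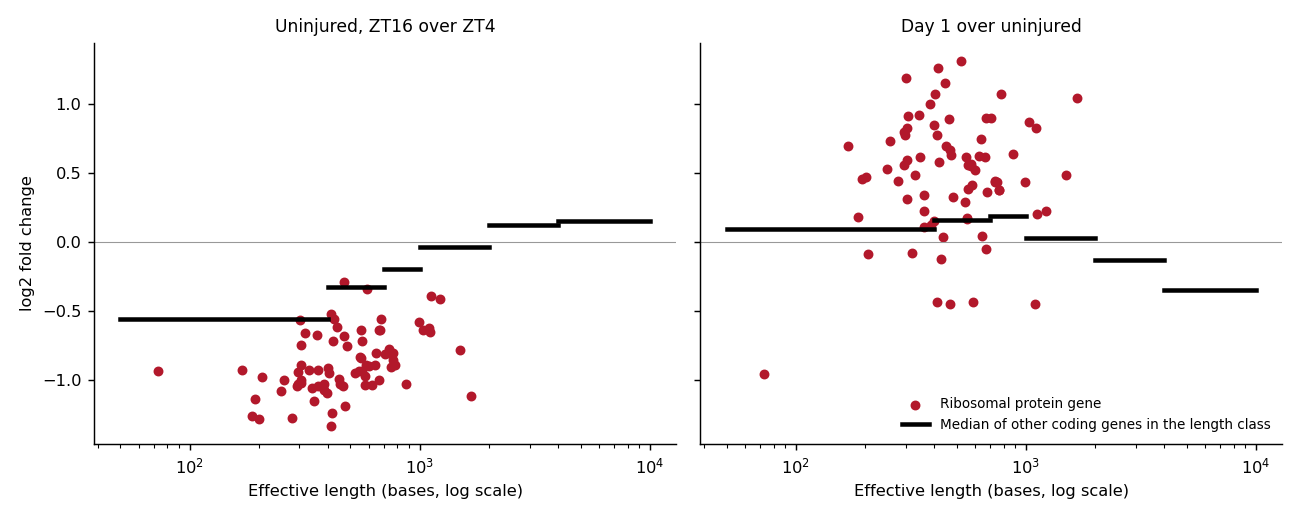
Log2 fold change of 77 ribosomal protein genes (points, Rpl3l left out) against effective mRNA length in bases on a log scale, with the median of other coding genes in each length class (black lines). Left, uninjured ZT16 over ZT4, where most points lie below the lines of −0.56 to −0.04; right, day 1 over uninjured, where most points lie above lines of 0.03 to 0.18.

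After injury the difference between the times was not detected for any single member. At day 1, none of 78 was called by edgeR (0.0% of all genes were), DESeq2 or limma voom, and none had an unadjusted p under 0.05. The median log2 fold change of ZT16 over ZT4 was −0.02. At day 3 none of 78 was called by the same 3 tools (0.0% of all genes by edgeR; 8 members, and 0.434% of all genes, were called when no filter on low counts was used), yet all 78 had a positive log2 fold change, with a median of 0.31 against 0.00 over all genes. Without day 3 ZT16 replicate 2 the median over members was 0.18, and with the length trend removed 0.15. Of the 78, 51 had an unadjusted p under 0.05, against 1003 of all 15084 genes, and 34 had every ZT16 library above every ZT4 library, against 3.08% of all genes. Rps12 had 122, 230, 147 and 109 CPM at ZT16, against 102, 107, 109 and 89.5 CPM at ZT4 (0.58 ± 0.20, edgeR adjusted p = 0.692). The groups touched at 109 CPM, and ZT16 replicate 2 was far above the rest.

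The change of the time difference with injury was tested directly, as the ZT16-over-ZT4 log2 fold change after injury minus that in uninjured cells. ZT may mark different events in injured and uninjured groups, which this test cannot tell apart from an effect of injury. At day 1 the change was positive and called for 70 of 78 members (89.7%), against 3.93% of all genes called higher and 3.53% lower (7.46% in either direction), with a median of 0.89 over members and 0.02 over all genes. At day 3 it was called for 76 of 78 (97.4%), against 6.8% of all genes called higher and 5.97% lower (12.8% in either direction), with a median of 1.23 over members and −0.02 over all genes. Rps12 again stood among the largest, at 1.36 ± 0.31 at day 1 (edgeR adjusted p = 0.0127) and 1.85 ± 0.31 at day 3 (adjusted p = 0.000677). Rpsa, the laminin-binding protein of the small subunit, gave 1.15 ± 0.23 at day 1 and 1.53 ± 0.23 at day 3. Both tests share the uninjured libraries. Without uninjured ZT16 replicates 1 and 3 together no member was called at day 1, with 0.808% of all genes called in either direction. Without replicate 1 alone 42 members were called (4.18% of all genes), and without replicate 3 alone 43 (4.68% of all genes). With the length trend removed 16 members were called (5.4% of all genes).

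**Figure D3:**
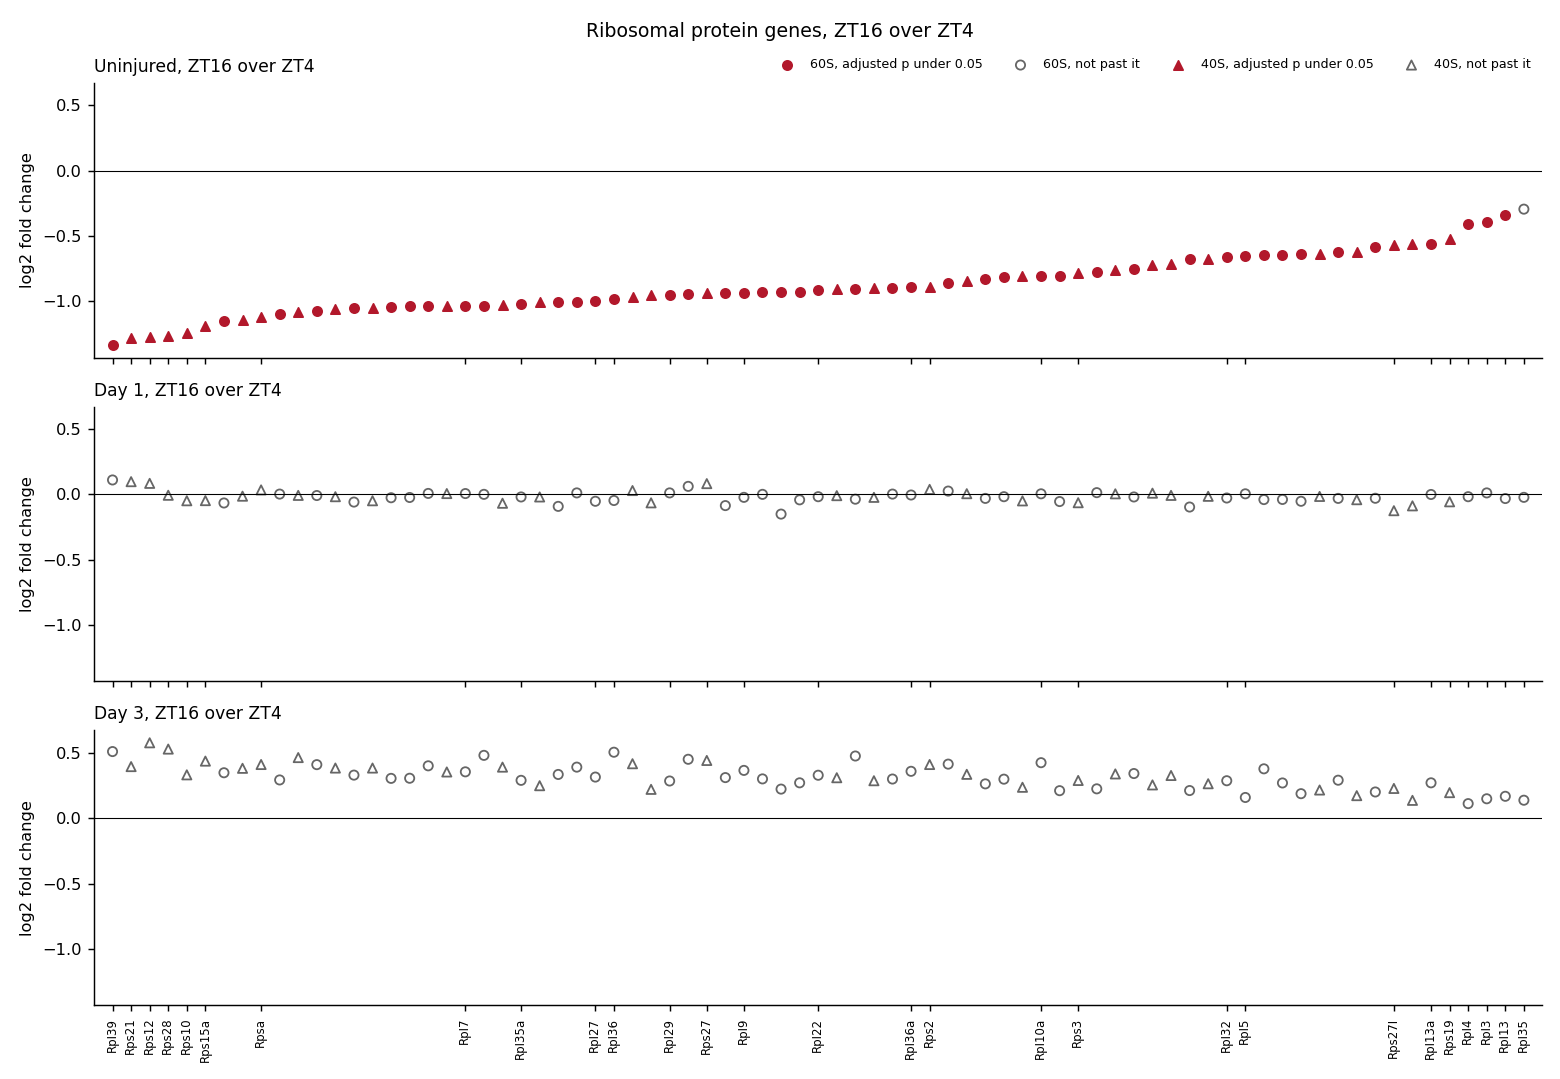
Log2 fold change of ZT16 over ZT4 for 77 ribosomal protein genes (Rpl3l left out), in the order of the uninjured comparison, on 1 scale for uninjured, day 1 and day 3. Circles are 60S and triangles 40S members, filled where the edgeR adjusted p was under 0.05, and the axis names the members given in the text. Points lie below 0 in uninjured cells, around 0 at day 1 and above 0 at day 3.

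Injury was then set against the uninjured state, with both times averaged, to ask what changes as the cells are activated. At ZT16 the members' mean share of counts was 2.61% in uninjured cells, 4.42% at day 1 and 4.27% at day 3. At ZT4 it was 4.72%, 4.41% and 3.58%, so the mean share was higher after injury only at ZT16. No test of injury was run within either time. At day 1, 60 of 78 members (76.9%) were higher and 5 lower by edgeR, against 34.6% of all genes higher and 40.6% lower. The median log2 fold change was 0.50 over members and −0.13 over all genes tested. At day 3, 46 members (59.0%) were higher and 8 lower, against 37.9% and 39.1% of all genes, and the median was 0.31 over members and −0.03 over all genes. Without uninjured ZT16 replicate 2, 57 were higher and 5 lower at day 3, with 74.2% of all genes called in either direction. The median was then 0.48 over members and 0.11 over all genes. At day 1, 12 members had every library above every uninjured one and 1 every library below, against 21.5% and 21.7% of all genes; at day 3 these were 10 and 1, against 24.6% and 23.1%. Both comparisons use the same uninjured libraries, so they are not independent. In either direction, 83.3% of members were called at day 1 and 69.2% at day 3, against 75.2% and 76.9% of all genes, so the number called lay near the background.

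The members that rose most at day 1 came from both subunits. Rpl29 had 381, 461 and 572 CPM (lowest, median and highest of 8) at day 1, against 129, 162 and 307 CPM in 6 uninjured libraries (1.31 ± 0.11, edgeR adjusted p = 9.36e-11). Rps10 had 367, 415 and 499 CPM at day 1, against 102, 148 and 336 CPM in uninjured libraries (1.26 ± 0.13). Neither gene's groups overlapped. Rps27l (1.18 ± 0.09), Rpl27 (1.15 ± 0.10) and Rps2, at the mRNA entry side of the small subunit (1.07 ± 0.12), were also among the largest rises.

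A few members went the other way. Rps27 had 74.2, 91.9 and 102 CPM at day 1, against 89.3, 168 and 287 CPM in uninjured libraries (−0.96 ± 0.18, adjusted p = 7.94e-05), with a small overlap. Rpl13 had 1180, 1290 and 1410 CPM at day 1, against 1420, 1800 and 2110 CPM in uninjured libraries (−0.44 ± 0.06), with no overlap. Rpl35 (−0.45 ± 0.09) and Rps19, the protein most often mutated in the human red cell disorder Diamond-Blackfan anaemia (−0.43 ± 0.07), fell as well. With the length trend removed, these 4 members had log2 fold changes between −0.78 and −1.48.

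At day 3 the same directions held for most named members. Rps27l (1.48 ± 0.09), Rpl27 (1.29 ± 0.10), Rpl5, which carries the 5S ribosomal RNA and can bind Mdm2 (1.08 ± 0.09), Rpl29 (1.08 ± 0.11) and Rpl35a (1.02 ± 0.11) were among the largest rises against uninjured cells. Rpl3l (−3.48 ± 0.68), Rps27 (−0.95 ± 0.18), Rps19 (−0.59 ± 0.07), Rpl13 (−0.54 ± 0.06), Rpl36 (−0.37 ± 0.13), Rpl32 (−0.30 ± 0.09) and Rpl10a (−0.28 ± 0.12) were among the 8 that fell. Rpl3l lay near the floor, at 0 to 0.48 CPM at day 3 and 0.226 to 3.41 CPM in uninjured libraries, so the size of its fall is uncertain. The median at day 3 changed sign with the length trend removed. Other coding genes under 400 bases had a median of 0.56 and members of that class 0.53, and with the trend removed 15 members were higher, 36 lower, and the median was −0.14, with 76.9% of all genes called in either direction. At day 1 the same removal left 37 higher and 18 lower, with a median of 0.15 and 75.4% of all genes called.

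Day 3 was also set against day 1 directly. Of 78 members 4 were higher and 30 lower (38.5%), against 26.7% and 28.7% of all genes and 55.4% in either direction, with a median of −0.15 over members. Rpsa had 626, 690 and 1120 CPM at day 3, against 988, 1080 and 1170 CPM at day 1 (−0.51 ± 0.11, edgeR adjusted p = 0.000267). Rps3, at the mRNA entry channel (−0.50 ± 0.08), Rps2 (−0.49 ± 0.11), Rpl7 (−0.46 ± 0.13) and Rpl9 (−0.41 ± 0.10) also fell. The 4 that rose were Rpl35 (0.40 ± 0.09), Rps27l (0.30 ± 0.08), Rpl5 (0.26 ± 0.08) and Rpl13a (0.18 ± 0.07). With the length trend removed, Rps27l (0.11) and Rpl13a (0.02) were no longer called. Members under 400 bases had a median of −0.07, against 0.34 for other coding genes of that length, and 58 members were called lower once the length trend was removed, with 56.4% of all genes called in either direction. Without day 3 ZT4 replicate 4, 22 members were called in either direction, against 53.4% of all genes.

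**Figure D4:**
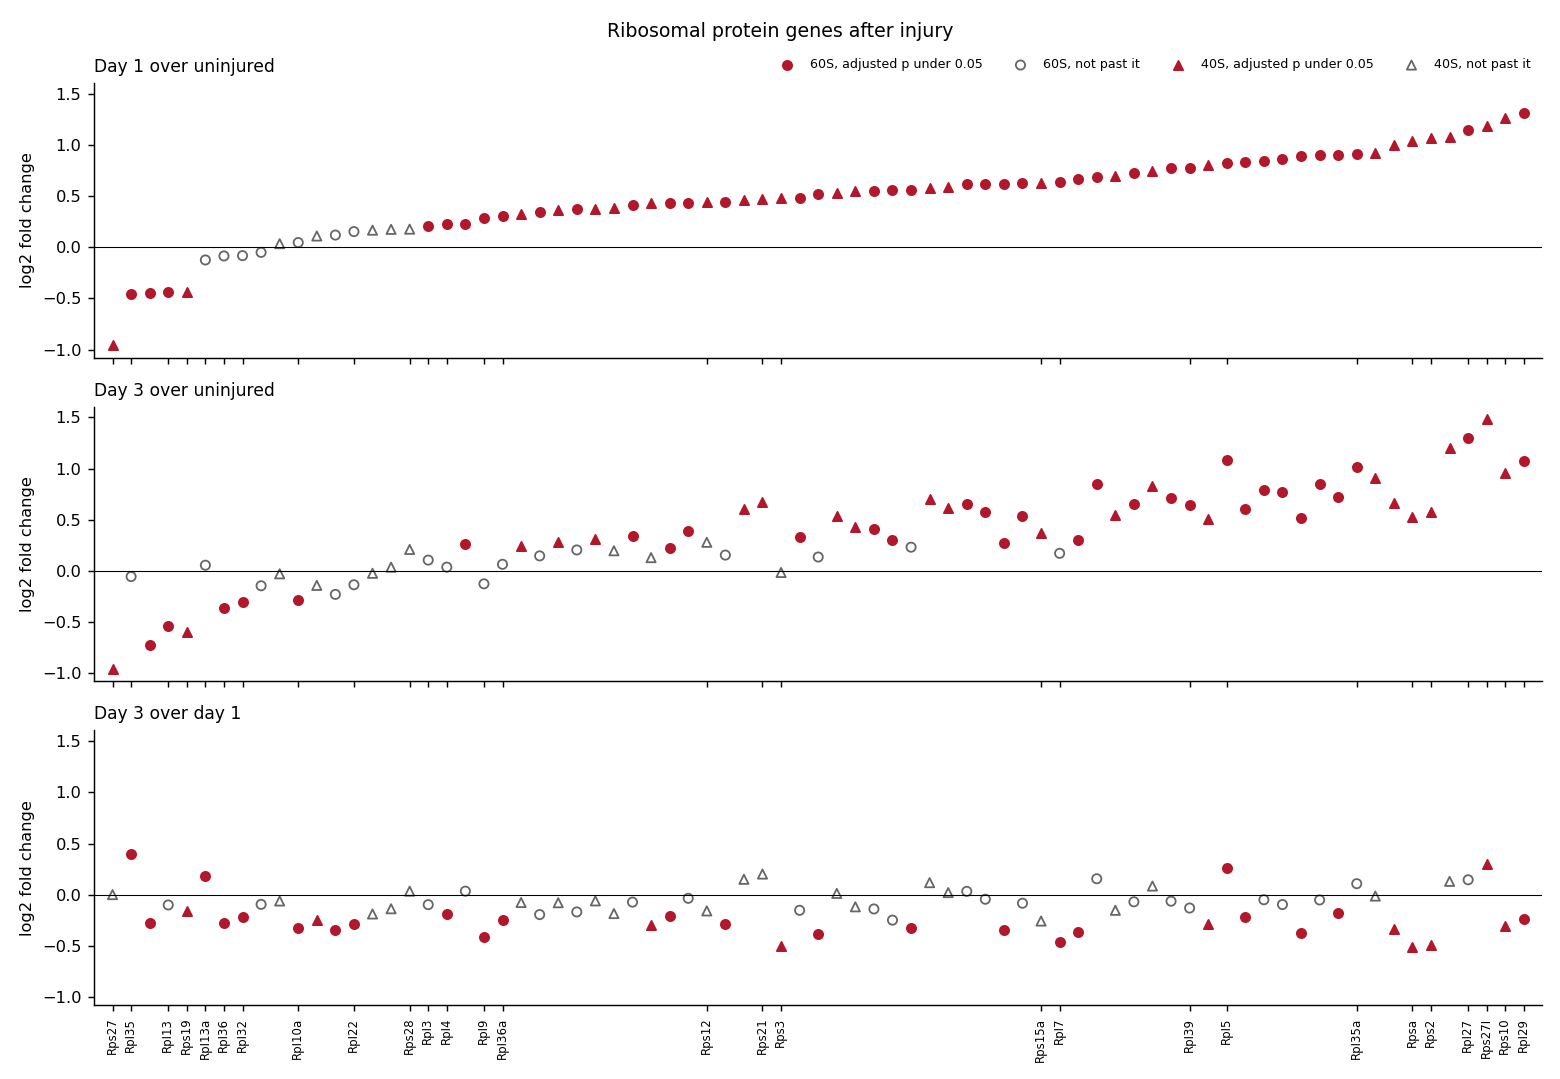
Log2 fold change of 77 ribosomal protein genes (Rpl3l left out) at day 1 over uninjured, day 3 over uninjured and day 3 over day 1, in the order of the day 1 comparison. Circles are 60S and triangles 40S members, filled where the edgeR adjusted p was under 0.05, and the axis names the members given in the text. Rps27 lies lowest at −0.96 and Rpl29 highest at 1.31 at day 1, and points at day 3 over day 1 lie mostly below 0.

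RNA of other cells moved with injury too. All 10 macrophage and monocyte markers rose at day 1 and at day 3 against uninjured cells, and 5 of 5 tested neutrophil markers rose at day 1. The neutrophil markers summed to 0 to 3.71 CPM in uninjured libraries, 29.2 to 308 at day 1 and 6.4 to 16.4 at day 3. Fibro-adipogenic markers (6 genes) summed to 3322 ± 366 CPM in uninjured libraries (SD, n = 6), 673 ± 101 at day 1 and 2001 ± 623 at day 3 (n = 8 each). At day 1, 4 of them were lower and 1 higher, and at day 3, 2 were lower and 4 higher. Endothelial markers summed to 124 ± 28.2, 37.9 ± 12.5 and 12.1 ± 3.14 CPM in uninjured, day 1 and day 3 libraries, and smooth muscle and mural markers to 734 ± 329, 360 ± 22.7 and 337 ± 52.0 CPM. Of 5 endothelial markers, 1 was higher and 1 lower at day 1, with a median log2 fold change of 0.444. At day 3, 3 were lower and none higher, with a median of −1.235. Of 5 smooth muscle and mural markers, 4 were lower and none higher at day 1, and 4 were lower and 1 higher at day 3. Their part in the members' changes was not tested.

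Paralogues were compared per length, in deposited TPM. Rps27 and Rps27l encode nearly the same zinc-binding protein of the small subunit, and in human cells RPS27L is a target of p53. Their coding sequences are shown because the pair moved in opposite directions. Capitals mark the 60 of 252 positions at which they differ (76.2% identity), from GENCODE M21 transcripts on GRCm38 (Rps27 at chr3:90212522-90213651, minus strand; Rps27l at chr9:66946086-66949516, plus strand).
Rps27: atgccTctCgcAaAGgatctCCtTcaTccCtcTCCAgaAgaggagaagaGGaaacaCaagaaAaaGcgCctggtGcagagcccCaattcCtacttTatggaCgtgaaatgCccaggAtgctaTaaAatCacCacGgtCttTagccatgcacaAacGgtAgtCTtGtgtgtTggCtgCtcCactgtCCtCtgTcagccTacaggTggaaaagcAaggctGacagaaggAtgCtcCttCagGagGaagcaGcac
Rps27l: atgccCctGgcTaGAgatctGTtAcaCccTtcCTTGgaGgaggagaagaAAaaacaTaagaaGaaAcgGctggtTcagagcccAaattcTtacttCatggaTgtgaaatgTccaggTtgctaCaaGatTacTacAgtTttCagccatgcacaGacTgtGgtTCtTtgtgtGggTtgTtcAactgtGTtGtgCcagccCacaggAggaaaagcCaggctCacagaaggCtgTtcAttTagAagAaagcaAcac
Rps27l had 87.3, 133 and 155 CPM (lowest, median and highest) in uninjured libraries, 239, 287 and 340 CPM at day 1 and 296, 339 and 455 CPM at day 3, with no overlap between uninjured and injured libraries. Of the TPM of the pair, Rps27l held 15.8 ± 2.5% in uninjured cells (SD, n = 6), 39.0 ± 3.2% at day 1 and 50.4 ± 3.1% at day 3 (n = 8 each). These groups did not overlap. The mean effective length of Rps27 was 72.9 bases, less than its coding sequence of 252, against 301 for Rps27l. TPM divides by this length, so an error of a few bases weighs more on Rps27 and on the shares of the pair. Rps27rt, a retrogene annotated apart, has a coding sequence identical to Rps27 (0 differences), and reads between them may be misassigned. Rps27rt was lower as well at day 1 (−0.65 ± 0.14, edgeR adjusted p = 0.000167) and at day 3 (adjusted p = 5.3e-07) against uninjured cells.

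Rpl22 and Rpl22l1 are paralogues of the large subunit, and in mouse the Rpl22 protein can repress Rpl22l1. By its gene count, Rpl22 was not called at day 1 (0.15 ± 0.12) or day 3 (−0.14 ± 0.12) against uninjured cells. A count does not allow for transcript length. Transcripts of Rpl22 with a long last exon, described below, held 61.1% of its counts in uninjured cells, 18.0% at day 1 and 15.5% at day 3. Rpl22l1 was not called at day 1 (0.06 ± 0.09) and was higher at day 3 (0.34 ± 0.09, edgeR adjusted p = 0.00204), a sign that turned with the length trend removed (−0.26). Of the TPM of the pair, Rpl22l1 held 66.0 ± 1.9% in uninjured cells at ZT16 and 53.2 ± 5.7% at ZT4 (n = 3 each), with no overlap. Over both times it held 59.6 ± 7.9% in uninjured cells (n = 6), 46.0 ± 3.9% at day 1 and 57.3 ± 3.0% at day 3 (n = 8 each). Rpl22l1 itself had a mean of 440.5 TPM in uninjured cells, 527 at day 1 and 607 at day 3. Its mean share was thus lower at day 1 while its mean TPM was higher. The part of the Rpl22 transcript forms in this share was not tested. Between ZT16 and ZT4 in uninjured cells Rpl22 was lower (−0.91 ± 0.18), and Rpl22l1 was not called (−0.10 ± 0.14). Rpl22 was no longer called with the length trend removed (−0.41, edgeR adjusted p = 0.0567) or without uninjured ZT16 replicates 1 and 3 (−0.83, adjusted p = 0.123).

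Rpl36al rose at day 1 (1.24 ± 0.10) and day 3 (1.13 ± 0.09), and held 46.8 ± 3.2% of the TPM of the pair with Rpl36a in uninjured cells, 62.8 ± 2.3% at day 1 and 65.2 ± 1.8% at day 3. Rpl7l1 rose at day 1 (0.56 ± 0.08) and day 3 (0.38 ± 0.08), and held 12.3 ± 4.4%, 10.8 ± 0.6% and 13.2 ± 1.7% of the pair with Rpl7 in uninjured, day 1 and day 3 cells, which overlap. Rpl3l never exceeded 0.315% of the TPM of its pair with Rpl3. It had 98 counts over 6 uninjured libraries, 53 over 8 at day 1 and 11 over 8 at day 3. As a gene of mature striated muscle it is read beside the 12 myofiber markers, which summed to 512 to 1313 CPM in uninjured libraries, 130 to 883 at day 1 and 975 to 2446 at day 3. Of these 12, 11 were lower and none higher at day 1, with a median log2 fold change of −1.07, and 5 were lower and 6 higher at day 3, with a median of 0.45. Their part in the Rpl3l values was not tested. Rpl10l and Rpl39l, which are known from the testis, had 3 and 15 counts over all 22 libraries. Rpl39l was at 0 in all uninjured libraries, and 12 of its counts fell in day 3 ZT4. The 0 in uninjured libraries allows up to 0.0699 CPM (3 counts over the group's library totals without TMM factors, counting error only).

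Several members also changed which of their transcripts were read. By the edgeR test of transcript use within genes, 19 of 56 members changed at day 1 against uninjured (15.4% of all 7608 genes tested) and 18 at day 3 (15.7% of all genes). Between day 3 and day 1, 3 changed (5.35% of all genes). With only transcripts that hold at least 10% of their gene, these counts were 12, 10 and 0. The number of genes tested also depends on this filter, so these counts cannot be set against the shares above. Rpl22 led at day 1. Its transcript Rpl22-201, of 474 bases, ends early in the last exon, and Rpl22-204 and Rpl22-208, of 2051 and 2048 bases, read on to the end of that exon with the same coding stretch of 384 bases. The last 30 bases of each are shown from the annotation, chr4:152332451-152332480, chr4:152334042-152334071 and chr4:152334041-152334070 on the plus strand, with the polyadenylation hexamer in capitals.
Rpl22-201: ttaattcataAATAAAatttaggaacaaaa
Rpl22-204: ttttgtATTAAAgtggctgacacatggcta
Rpl22-208: tttttgtATTAAAgtggctgacacatggct
The short form ends with AATAAA and the long ones with ATTAAA. Of 58797 annotated coding transcripts, 35.5% hold AATAAA in their last 30 bases on the transcript's strand, and 44.1% hold either.

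The short form held 28.4%, 32.6% and 40.1% of Rpl22 expected counts (lowest, median and highest) in uninjured libraries, 63.3%, 72.0% and 76.2% at day 1 and 63.0%, 70.2% and 74.9% at day 3. Uninjured and injured libraries did not overlap. The 2 long forms together held 61.1 ± 3.8% in uninjured cells (SD, n = 6), 18.0 ± 3.9% at day 1 and 15.5 ± 2.7% at day 3 (n = 8 each). As levels, the long forms had 57.4 to 136 CPM in uninjured libraries, 19.6 to 34.7 at day 1 and 14.5 to 24.4 at day 3. The adjusted p for Rpl22 was 2.98e-09 at day 1 and 1.41e-10 at day 3. A long transcript gives more reads per molecule, so these are shares of reads and not of molecules.

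**Figure D5:**
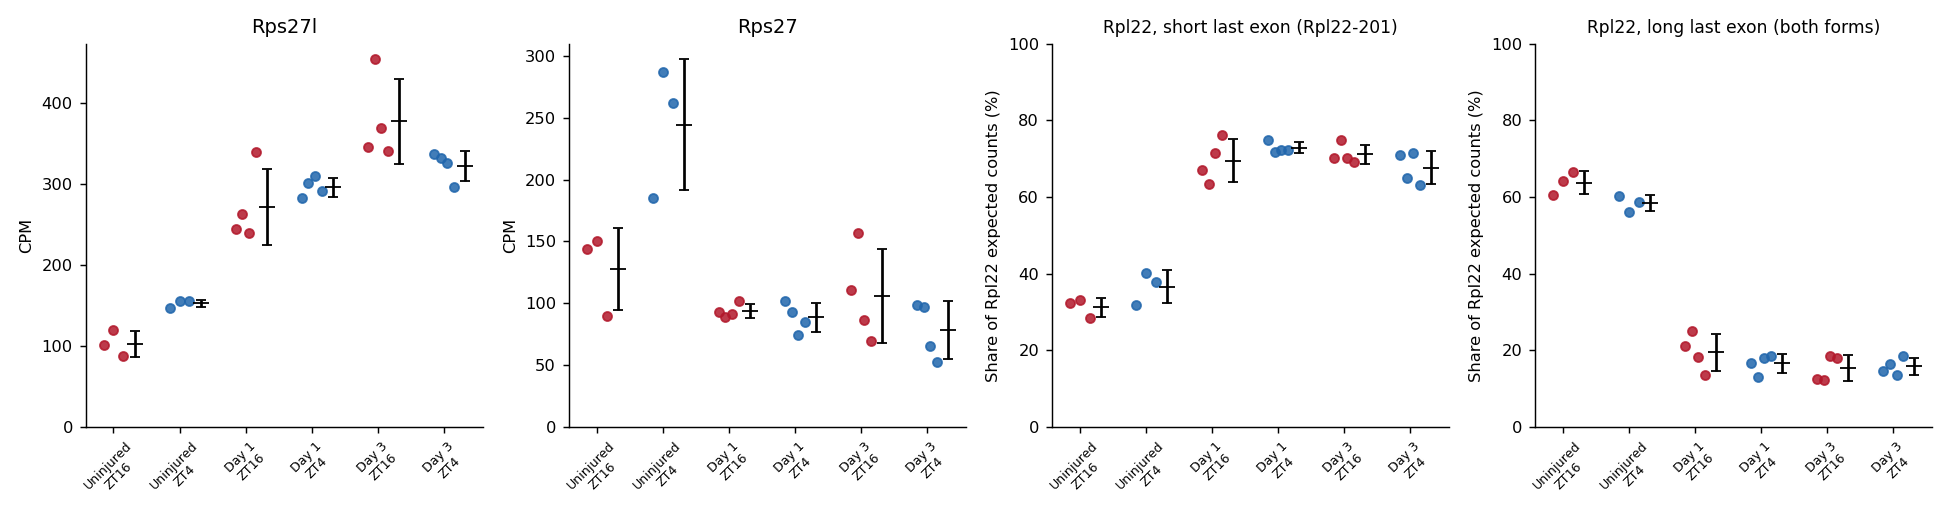
CPM of Rps27l and Rps27, and the percent of Rpl22 expected counts on the short form (Rpl22-201) and on both long forms (Rpl22-204 and Rpl22-208), in the 6 groups. Points are libraries, and bars show the mean ± SD (n = 3 or 4). The short form lies at 28.4% to 40.1% in uninjured libraries and at 63.0% to 76.2% after injury.

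In other members the first exon differed. Rpl35a-201 held 78.5 ± 5.9% of Rpl35a counts in uninjured cells, 52.0 ± 3.1% at day 1 and 41.0 ± 2.5% at day 3, with no overlap between the states. Rpl35a-205 held 12.2 ± 2.9%, 25.3 ± 2.7% and 30.4 ± 2.3%, and Rpl35a-204 held 2.14 ± 2.1%, 13.4 ± 1.6% and 19.8 ± 3.0%. All 3 share a coding stretch of 330 bases. Rpl27-202 held 18.7 ± 7.5% of Rpl27 counts in uninjured cells, 36.9 ± 2.5% at day 1 and 36.7 ± 4.9% at day 3. Rpl5-206, which starts at another first exon and ends before the last exon of Rpl5-201, held 16.9 ± 2.9%, 35.6 ± 2.1% and 36.0 ± 2.5%.

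The starts of the members were searched for the pyrimidine tract that marks this class of mRNA, because the members moved together in uninjured cells. A C followed by at least 4 bases that are C or T, within 5 bases of a RefSeq start on the gene's own strand, was present in 28 of 60 members with a start in the table (46.7%), against 21.2% of 27025 genes. Shown are 30 bases for 4 genes (GRCm38.p6), with the tract in capitals: Rpl35, the tested member closest to no change between the times in uninjured cells, the pair Rps27 and Rps27l, and Rpl3l. They lie at chr2:39005112-39005141 (minus), chr3:90213629-90213658 (minus), chr9:66946076-66946105 (plus) and chr17:24727816-24727845 (plus).
Rpl35: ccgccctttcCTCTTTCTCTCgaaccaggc
Rps27: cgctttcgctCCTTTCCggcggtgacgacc
Rps27l: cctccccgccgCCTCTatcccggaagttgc
Rpl3l: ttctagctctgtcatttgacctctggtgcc
No tract of this form was in the window of Rpl3l. A match is a description of these letters only.

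The rest of the translation machinery was read from lists. Their counts stand beside 8.53% of all genes called higher and 9.12% lower between the times in uninjured cells, and 34.6% higher and 40.6% lower (75.2% in either direction) at day 1 against uninjured. Of 7 translation elongation factors tested, 4 were lower and 1 higher at ZT16 than at ZT4 in uninjured cells, among them Eef1g (−0.79 ± 0.11) and Eef1a1, which delivers aminoacyl-tRNA (−0.75 ± 0.18). At day 1, 4 were higher than in uninjured cells and 1 lower. Eef1g rose (1.36 ± 0.08), as did Eif5a, which relieves stalled elongation (1.95 ± 0.08). Of 14 other genes known for a pyrimidine tract, 7 were lower at ZT16 and 12 were higher at day 1, with Npm1, a nucleolar chaperone of ribosome assembly, at 2.29 ± 0.10. Of 8 relatives outside the naming rule, 6 were lower at ZT16 and 6 higher at day 1. They included Fau, which encodes a ubiquitin-like protein fused to the ribosomal protein eS30, at −0.87 ± 0.14 at ZT16.

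Regulators moved in both directions, and the same background holds. Of 16 regulators of ribosomal protein mRNA translation, 4 were higher and 1 lower at ZT16 than at ZT4 in uninjured cells. Ddit4, an inhibitor of mTORC1, had 40.7, 84.7 and 106 CPM at ZT16, against 7.79 to 20.7 CPM at ZT4 (2.53 ± 0.37, edgeR adjusted p = 6.73e-05). Every ZT16 library, including replicate 2, lay above every ZT4 library. At day 1 Ddit4 was lower than in uninjured cells (−3.44 ± 0.27), and Eif4ebp1, a repressor of cap-dependent translation, was higher (1.01 ± 0.10). Of 11 chaperones and importers of ribosomal proteins, 8 were higher and 1 lower at day 1, against 75.2% of all genes in either direction, with the importers Ipo7 (2.09 ± 0.15) and Ipo5 (2.07 ± 0.07) among them. Of 11 factors that bind idle or stalled ribosomes, 6 were higher and 2 lower at day 1, so that 8 of 11 were called, a share near that of all genes, and Serbp1, which clamps idle ribosomes, rose by 1.73 ± 0.07.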

How the data were processed

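The tools used were RSEM 1.3.3, STAR 2.5.2, Trimmomatic 0.33 and DESeq2, with mm10, per the submitters' processing notes; their roles and the annotation release are not given in the sources used here. The authors deposited 1 table per library of 103732 transcripts. Per the file headers it holds RSEM expected counts, TPM, effective length in bases and the percent of a gene's expression on each transcript (IsoPct). The authors' expected counts and TPM were summed per gene, and names and places came from GENCODE M21 on GRCm38 (42546 of 43430 genes matched); start sequences came from RefSeq.

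Sums were rounded to whole counts and fitted in edgeR 4.0.16 (R 4.3.3; limma 3.58.1) by the quasi-likelihood test, with TMM scaling, removal of weakly expressed genes by filterByExpr (at least 10 counts, total of at least 15) and 1 mean for each of 6 groups over 22 libraries. P-values were adjusted by Benjamini-Hochberg over 15084 genes, and SE is the size of the log2 fold change over the root of F. With totals of 5965957 to 9751536 counts, 3 counts in a library are the limit that a 0 allows; SMART-seq reads carry no molecular identifiers, so such limits cover counting error only. Transcript use was tested with edgeR's diffSpliceDGE. The fits were tested on simulated data. CPM is per library total times the TMM factor, and the limits that a 0 allows are per library total. Tables were made with Python 3.11.15 (numpy 2.4.6, pandas 2.3.3, scipy 1.17.1) and drawn with matplotlib 3.10.9.

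Alternatives were DESeq2 1.42.0, limma voom, other scalings, no filter, effective length offsets, fits of only the groups compared, a replicate block and leaving out libraries. Removal of each library's trend of log2 CPM on mRNA length was added after seeing the data. The members, gene lists and tests were chosen with earlier results of these data known. In each comparison the text names from the 6 highest and 6 lowest members past the threshold, the paralogue pairs, up to 5 members with changed transcript use by 10 percentage points or more, and up to 4 genes of each list by smallest p. The IsoPct column was not used. Some genes that this rule allows are not reported here.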

Additional observations from a re-analysis of the deposited data

Results flagged for a closer look

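Across 144 group and measure pairs of 4 libraries, 9 had 1 library far from the others; about 1 in 20 does so by chance. Day 1 ZT16 replicate 4 was high in 4 of them. Its share of other short mRNAs was 6.75%, and it had 414 CPM of Rpl27, 197 CPM of Rpl36a and 158 CPM of Rps21. In day 1 ZT4, replicate 3 had the lowest member share of TPM, at 11.0%, and 191 CPM of Rpl39. Replicate 2 of that group had 176 CPM of Rpl36a, and replicate 4 had 2.34 CPM of Rpl3l. In day 3 ZT16, replicate 2 had 643 CPM of Rpl13a.

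The ZT16-over-ZT4 difference changed between uninjured and injured cells by a direct test of that change. It was called for 70 members at day 1, against 7.46% of all genes in either direction, and for 76 members at day 3, against 12.8% of all genes, by edgeR, all with a positive change. The day 1 count was 42 without uninjured ZT16 replicate 1, 43 without replicate 3 and 0 without both.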

How the results depend on the processing

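The number of members called changed by more than 1.5 times in these cases. Without uninjured ZT16 replicates 1 and 3 together, 11 members were called between the times in uninjured cells (467 of all genes), and 0 for the change of the time difference at day 1. That count, 70 as reported, became 16 with the mRNA length trend removed, and 42 and 43 without uninjured ZT16 replicate 1 or 3. At day 3, 8 members were called between the times when no filter was used. Of day 3 against day 1, 60 were called with the length trend removed and 22 without day 3 ZT4 replicate 4. Short of that, in the uninjured comparison 51 were called when only those groups were fitted (577 of all genes) and 60 with the length trend removed.

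Leaving out 1 library at a time gave 75 to 76 members called between the times in uninjured cells, 0 to 0 at day 1 and 0 to 0 at day 3. Of all genes, 11.4% to 18.7% were called in either direction in uninjured cells in these fits. Leaving out 1 library gave 64 to 68 for day 1 against uninjured, 51 to 62 for day 3 against uninjured and 22 to 42 for day 3 against day 1. The shares of all genes called in these 3 comparisons were 71.8% to 75.3%, 74.1% to 77.2% and 52.8% to 56.9%. For the change of the time difference it gave 42 to 75 at day 1 and 76 to 76 at day 3. There 4.18% to 10.3% of all genes were called at day 1 and 8.44% to 15.3% at day 3. The mean share of counts ranged from 2.362% to 2.741% in uninjured ZT16, 4.453% to 5.232% in uninjured ZT4, 4.207% to 4.538% in day 1 ZT16, 4.362% to 4.489% in day 1 ZT4, 3.991% to 4.415% in day 3 ZT16 and 3.561% to 3.61% in day 3 ZT4. Changed transcript use ranged from 15 to 19 members for day 1 against uninjured, 17 to 20 for day 3 against uninjured and 1 to 4 for day 3 against day 1.

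In deposited TPM the share was 7.212% in uninjured ZT16, 11.02% in uninjured ZT4, 11.46% in day 1 ZT16, 11.46% in day 1 ZT4, 10.39% in day 3 ZT16 and 9.132% in day 3 ZT4. With pseudogenes added it was 4.621% in day 1 ZT4 and 3.74% in day 3 ZT4, and over nuclear coding genes alone 4.662% and 3.751%. Counting transcripts with at least 10% of their gene, transcript use changed in 12 members (day 1 against uninjured), 10 (day 3 against uninjured) and 0 (day 3 against day 1). The number of genes tested depends on that filter, and no share of all genes is given for it.

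With the length trend removed 5 named values changed sign: Rps27 between the times in uninjured cells (0.087), Rpl3 and Rpl36a at day 1 against uninjured (−0.023 and −0.127), Rpl22l1 at day 3 against uninjured (−0.264) and Rps27 in the change of the time difference at day 3 (−0.029). Of 93 named values, 43 kept sign and call in every alternative. The cause of these changes was not tested. Library totals in place of TMM moved the median of all genes by −0.10 between the times in uninjured cells, and effective length offsets moved it by 0.12 at day 3 against uninjured.

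The replicate numbers did not pair the libraries: correlations of same-numbered deviations ran from −0.117 to 0.204. With a replicate block 76 members were called between the times in uninjured cells, and 1 in place of 3 changed transcript use at day 3 against day 1.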
